A study of Mus musculus with 8 samples.

Results

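The genes described are 8 regulators of the fetal programme of blood stem cells, taken by symbol from a table of 14033 gene symbols on 14268 rows: the RNA-binding proteins Lin28b, Igf2bp1, Igf2bp2 and Igf2bp3, the chromatin proteins Hmga1 and Hmga2, the transcription factor Arid3a and the histone methyltransferase Ezh2. All 8 had a row, and where a symbol had several, the row with the highest mean was read. The study compared 2 fractions of mouse fetal liver cells at embryonic day E14.5, from Flt3-Cre mice crossed to the mTmG reporter strain. Cells with that reporter are red with Tomato at the outset and turn green for good once Cre has acted, so GFP+ cells carry a history of Flt3-Cre activity and Tomato+ cells do not. Both fractions were sorted from lineage-negative cells that stained for Kit and Sca1, with 4 libraries of each, 8 in all. The sample titles also name CD150 as part of the sort, but put no plus sign after it. Per the labels both fractions come from the same cross, with no agent given, and the GFP mark records past Cre activity and not Flt3 made at the time of sorting. The labels number the libraries but do not say whether they came from separate embryos or litters, so the authors' p-values may measure technical spread.

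Lin28b is an RNA-binding protein that holds back the maturation of let-7 microRNAs, and let-7 in turn represses many growth and fetal genes by pairing with their 3′ untranslated regions. In mice, Lin28b is made in fetal and not adult blood stem cells, and its forced expression in adult progenitors restores fetal-like lymphoid output. Hmga2 and the Igf2bp genes are textbook let-7 targets that are high in the fetus. Hmga proteins bend AT-rich DNA, Igf2bp proteins bind and stabilise messenger RNAs, Arid3a is an AT-rich DNA-binding factor of B lineage cells, and Ezh2 is the catalytic subunit of Polycomb repressive complex 2 (PRC2).

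The let-7 family is shown first because it links Lin28b to its targets. The mature sequences come from RefSeq (build GRCm38.p6), and the capitals mark the seed, bases 2 to 8, which all 9 share.
let-7a: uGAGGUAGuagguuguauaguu
let-7b: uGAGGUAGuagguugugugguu
let-7c: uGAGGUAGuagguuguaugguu
let-7d: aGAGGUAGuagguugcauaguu
let-7e: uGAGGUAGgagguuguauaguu
let-7f: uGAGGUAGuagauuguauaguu
let-7g: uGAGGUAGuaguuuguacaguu
let-7i: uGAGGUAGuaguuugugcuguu
miR-98: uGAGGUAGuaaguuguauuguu

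Lin28 proteins recognise a GGAG motif in the loop region of let-7 precursors. The letters GGAG stood downstream of the mature arm in 9 of 12 let-7 and miR-98 hairpins listed by RefSeq. The let-7g hairpin (chr9:106178840-106178927, plus strand, GRCm38.p6) holds the motif, in capitals, and the let-7c-2 hairpin (chr15:85706603-85706697, plus strand) does not.
let-7g hairpin: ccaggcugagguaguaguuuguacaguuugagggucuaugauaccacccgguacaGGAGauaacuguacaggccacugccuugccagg
let-7c-2 hairpin: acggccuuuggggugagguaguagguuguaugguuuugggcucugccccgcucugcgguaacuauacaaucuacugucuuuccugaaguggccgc

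Matches to the shared seed were searched on the sense strand of the 3′ untranslated regions in GENCODE M21 (GRCm38), as an 8mer (CTACCTCA) or as the 7mers CTACCTC and TACCTCA where the 8mer was not complete. All 8 genes held at least 1 match and 6 held an 8mer, 26 matches and 8 8mers in all. Among the 11338 genes of the table with such a region, 3.61% held an 8mer and 17.1% any match. Several of the 8 genes are discussed together because they are known let-7 targets, so that difference is not independent of how they were chosen. The 8 complete matches are shown with the bases before them, capitals marking the match, followed by the only matches of Hmga1 and Ezh2, which are 7mers.
Lin28b, chr10:45381022-45381043, minus strand: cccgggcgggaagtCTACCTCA
Hmga2, chr10:120364224-120364245, minus strand: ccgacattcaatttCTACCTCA
Igf2bp1, chr11:95961778-95961799, minus strand: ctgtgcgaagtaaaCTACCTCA
Igf2bp1, chr11:95959357-95959378, minus strand: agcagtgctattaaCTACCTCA
Igf2bp1, chr11:95958763-95958784, minus strand: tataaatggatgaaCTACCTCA
Igf2bp2, chr16:22059473-22059494, minus strand: cacacaaataaaagCTACCTCA
Igf2bp3, chr6:49086787-49086808, minus strand: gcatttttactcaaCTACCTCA
Arid3a, chr10:79953896-79953917, plus strand: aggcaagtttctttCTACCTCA
Hmga1, chr17:27563278-27563299, plus strand: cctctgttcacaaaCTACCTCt
Ezh2, chr6:47530527-47530548, minus strand: tcccttgacatctaCTACCTCt

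Longer regions held matches more often. Any match stood in 6.11% of the 818 genes with a region within 1.2 times the 402 bases of Ezh2, and in 55.4% of the 312 genes near the 6337 bases of Igf2bp1. Hmga2 had 7 matches in a region of 3014 bases, of which 1 was an 8mer, and 5.80% of the 1258 genes with a region of like length held an 8mer. Igf2bp1 held 3 8mers, where 12.8% of genes of like length held at least 1. Only 4 of the genes searched, Igf2bp1 among them, held 3 or more.

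Across the 8 genes, 3 rose in GFP+ cells, 0 fell and 5 did not pass the authors' adjusted p of 0.05. The 3 that rose were Igf2bp3, Hmga1 and Hmga2, by 1.44-fold, 1.30-fold and 1.29-fold per the authors' deposited table. Of the 5 others, 4 had a higher and 1, Igf2bp2, a lower mean in GFP+. Over all rows 4.86% were called higher in GFP+, 2.64% lower and 7.49% in either direction. A ratio above 0 was seen in 51.2% of all rows. That share was 66.3% at a mean from 500 to 5000 and 95.7% at 5000 or more. The median log2 ratio of GFP+ to Tomato+ over the 8 genes was 0.32, or 0.17 with both fractions scaled to the same total. Over all rows the median was 0.01, but it was 0.08 among rows with a mean from 500 to 5000, where 7 of the genes lie, and 0.38 among rows averaging 5000 or more, where Hmga1 lies. The table gives group means of normalized counts and no value for a single library, so no spread between libraries can be shown and whether the libraries of both fractions overlap is unknown. In sorted bulk cells, fewer cells making a transcript and less of it per cell cannot be told apart.

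**Figure D1:**
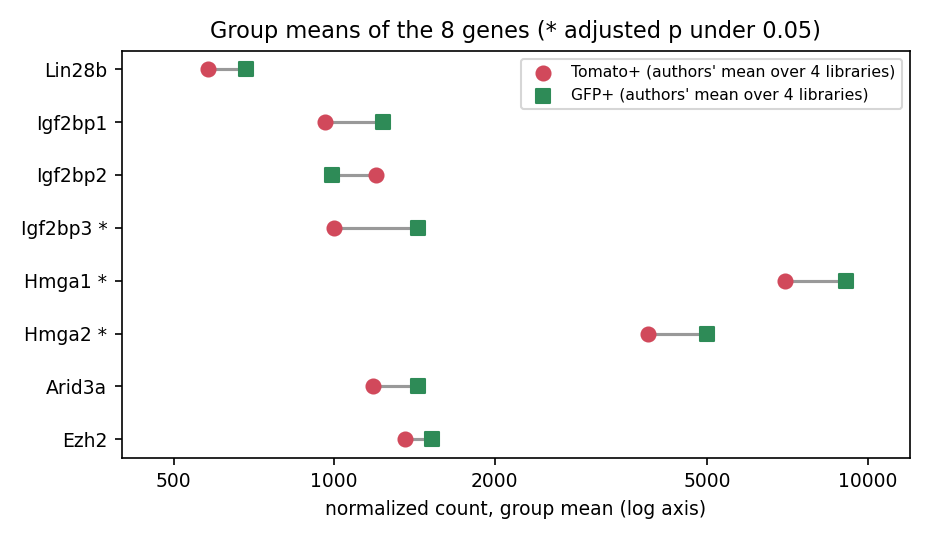
Authors' mean normalized count of each of the 8 genes in Tomato+ (red circles) and GFP+ (green squares) cells, on a log axis, with stars for an adjusted p under 0.05. The GFP+ mean is the higher in 7 genes and the lower in Igf2bp2, and the distance is widest for Igf2bp3. No error bars are drawn, since only group means were used.

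Among the RNA-binding proteins, Lin28b itself did not pass. It averaged 682 normalized counts in GFP+ cells against 581 in Tomato+ cells per the authors' deposited table, a log2 ratio of 0.23 (adjusted p = 0.61). A second row with the same symbol averaged 639 and 549 per the authors' deposited table and a log2 ratio of 0.22, so both rows lay close together. Its paralog Lin28a, the form known from embryonic stem cells, averaged only 5.98 and 7.46 per the authors' deposited table. Per kilobase of transcript, Lin28b made up 98.7% of the Lin28 signal in GFP+ and 98.1% in Tomato+ cells. The cells of both fractions thus held Lin28b transcript and next to no Lin28a.

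The 3 Igf2bp genes had ratios on both sides of 0. Igf2bp3 averaged 1438 in GFP+ cells against 997 in Tomato+ cells per the authors' deposited table, a log2 ratio of 0.53 with an adjusted p of 0.0139. It was the widest difference of the 8, and 2.49% of the 3731 rows with a mean from 500 to 5000 had a higher ratio. Igf2bp1 averaged 1236 and 961 per the authors' deposited table, a log2 ratio of 0.36 that did not pass (p = 0.0196, adjusted p = 0.168). Igf2bp2, the family member that is also made in adult tissues, went the other way, averaging 991 in GFP+ cells against 1200 in Tomato+ cells per the authors' deposited table and a log2 ratio of -0.28 (p = 0.0587, adjusted p = 0.339). Whether the ratios of Igf2bp2 and Igf2bp3 differ was not tested, since that needs values per library.

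Set per kilobase of transcript, the make-up of the family differed between the fractions. Igf2bp3 made up 45.2% of the family's normalized counts per kilobase in GFP+ and 35.2% in Tomato+. Igf2bp2 made up 34.7% in GFP+ and 47.2% in Tomato+, so the order of the 2 was reversed. Igf2bp1 was the smallest part in both, at 20.1% and 17.6%. These shares use GENCODE M21 transcript lengths, which may differ from the intervals the authors counted, and they carry no error.

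Both AT-hook chromatin genes rose. Hmga2, which supports self-renewal of fetal stem cells in mice, averaged 4992 in GFP+ cells against 3875 in Tomato+ cells per the authors' deposited table, a log2 ratio of 0.37 and the smallest adjusted p of the 8, 0.00859. Hmga1, its broadly expressed paralog, had 9129 and 7014 per the authors' deposited table, a log2 ratio of 0.38 with an adjusted p of 0.0443. Both shifted by nearly the same amount, so Hmga1 kept 80.6% of the pair's counts per kilobase in GFP+ against 80.4% in Tomato+. Hmga1 has a near-identical gene copy, Hmga1b, on chromosome 11 in RefSeq, and no source used here says how shared reads were counted, so its value is uncertain. RefSeq also lists a transcribed pseudogene of Hmga2 on chromosome 1.

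The size of these ratios has to be read against the level of each gene, because ratios in the table leaned to GFP+ with rising mean. Among the 163 rows averaging 5000 or more, 69.3% were called higher in GFP+. Hmga1, at an overall mean of 8071, was the median row of that group, with 49.7% of the group above it and 49.7% below. A ratio of that size was the usual one at its level. The other 7 genes lay among the 3731 rows with a mean from 500 to 5000, where 5.68% were called higher and 1.85% lower. Of these 7 genes 2 were called higher, Igf2bp3 and Hmga2. A higher ratio than that of Hmga2 was seen in 8.28% of these rows, than that of Igf2bp1 in 8.39%, than that of Lin28b in 23.8% and than that of Ezh2 in 33.6%. For Igf2bp2, 5.55% had a lower one.

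**Figure D2:**
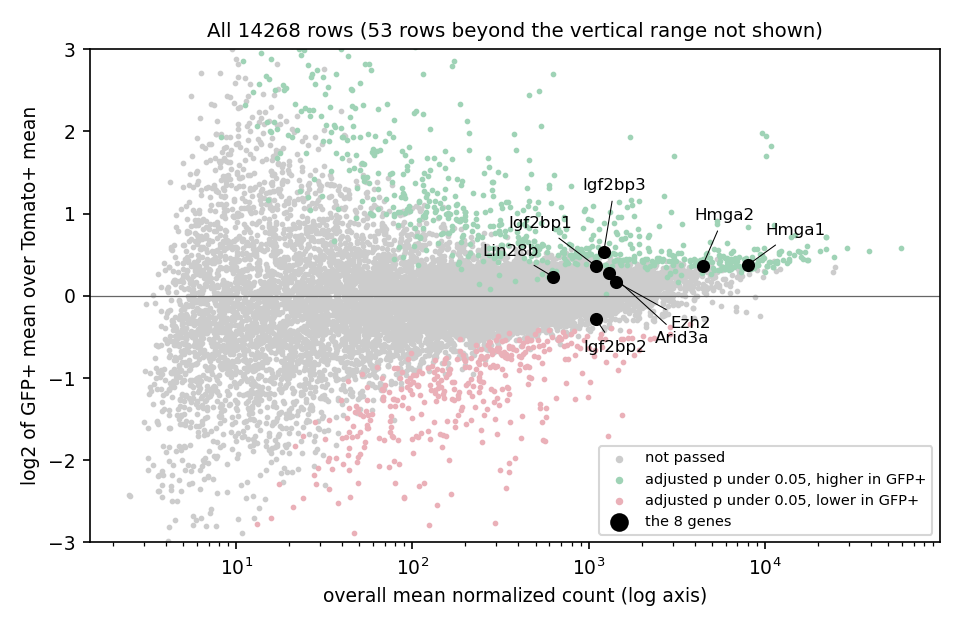
Log2 ratio of the GFP+ over the Tomato+ mean against the overall mean normalized count (log axis) for the rows of the authors' deposited table, coloured by call, with the 8 genes in black; 53 rows beyond ±3 are not shown. Rows at the right lie mostly above 0, and Hmga1 sits in the middle of that band, while Igf2bp3 lies above and Igf2bp2 below most rows of their level.

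Scaling both fractions to the same total lowers every log2 ratio by 0.16. Igf2bp3 then had 0.37, Hmga1 0.22, Hmga2 0.21 and Igf2bp1 0.21. Lin28b kept 0.07 and Ezh2 0.012, while Igf2bp2 moved to -0.43. Centring on the median ratio of rows averaging at least 50 lowers every ratio by 0.03. Both take the same constant from every gene, and the smallest positive ratio as deposited, that of Ezh2, was 0.17.

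**Figure D3:**
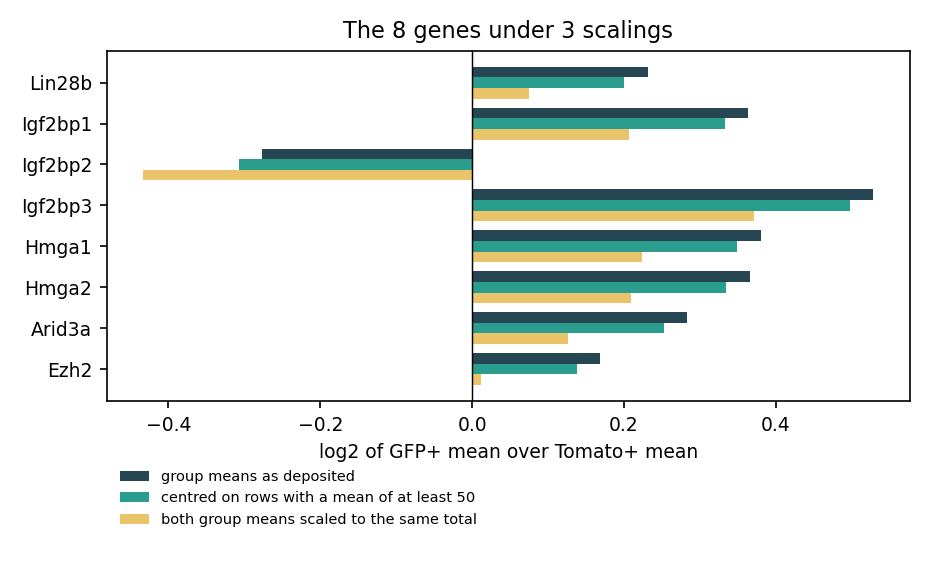
Log2 ratio of the GFP+ over the Tomato+ mean for the 8 genes with the group means as deposited, centred on the median of rows averaging at least 50, and scaled to the same total. Each scaling moves all bars by the same amount; with equal totals Ezh2 lies close to 0 and Igf2bp2 reaches -0.43.

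The remaining regulators, Arid3a and Ezh2, did not pass. Arid3a, which in mice promotes the innate-like B lineage, averaged 1437 in GFP+ cells against 1181 in Tomato+ cells per the authors' deposited table, a log2 ratio of 0.28 with p = 0.0319 and adjusted p = 0.231. Ezh2 had 1524 and 1355 per the authors' deposited table, a log2 ratio of 0.17 (adjusted p = 0.729). Ezh1, the alternative PRC2 methyltransferase that is more common in resting adult cells, had 223 and 258 per the authors' deposited table and did not pass. Ezh2 made up 91.2% of the Ezh counts per kilobase in GFP+ and 88.8% in Tomato+.

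The partners of Ezh2 gave no call. Of 21 measured genes of PRC2, its accessory proteins, the opposing demethylases and PRC1, 0 passed the authors' adjusted p, made with DESeq as far as the processing notes tell, and 4 had an unadjusted p under 0.05, with 12 ratios above and 9 below 0 and a median log2 of 0.06. The core subunits Suz12 and Eed had log2 ratios of 0.17 and 0.16 per the authors' deposited table, near that of Ezh2. The 3 with the smallest p-values were Phc1, a PRC1 scaffold, E130012A19Rik, and Rbbp4, a histone chaperone shared by several complexes, with -0.42, 0.53 and 0.34 per the authors' deposited table. Of 12 other ARID family genes 0 passed either and 3 had an unadjusted p under 0.05, with a median of -0.10. The 3 with the smallest p-values were Arid5a, Arid5b and Arid1b, at 0.52, -0.71 and -0.29 per the authors' deposited table. Arid3b, a relative of Arid3a, had 0.13, and Arid3c had no row. An unadjusted p under 0.05 was common over all 14268 rows. The authors' p of Arid3a, 0.0319, had rank 1968, and that of Igf2bp2, 0.0587, had rank 2467. Whether the counts at that cut in both lists exceed that background was not tested.

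Most genes that make, process or load microRNAs had ratios below 0, but few were called. Of 22 measured, 1 rose and 0 fell, with 6 ratios above and 16 below 0 and a median log2 of -0.14. Most of them have a mean from 500 to 5000. Over all rows of that level the median log2 was 0.08 and the lower quartile -0.05. Whether the list differs from its level was not tested. The rise was that of Hnrnpa1, an abundant splicing factor that also binds let-7 precursors, 1.34-fold per the authors' deposited table (adjusted p = 0.0354); its GFP+ mean of 13495 places it among the high rows that lean to GFP+. Drosha and Dicer1, the nucleases that cut let-7 precursors, had log2 ratios of 0.05 and 0.02 per the authors' deposited table. Zcchc11 and Zcchc6, the uridylases that act with Lin28 proteins, had -0.16 and -0.15, and the exonuclease gene Dis3l2, which removes the tailed precursors, -0.01, per the authors' deposited table. The Argonaute genes Eif2c1 and Eif2c2 had -0.14 and -0.20, Eif2c4 had -0.92 and the helicase gene Ddx17 -0.27 per the authors' deposited table, and none of these passed. No row of the table is named for let-7, so the microRNAs themselves are not analysed here.

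Known let-7 targets outside the 8 genes went both ways. Of 34 measured, 4 rose and 2 fell, with a median log2 of -0.07. Ccnd1, which encodes cyclin D1, rose from a mean of 855 in Tomato+ to 1585 in GFP+ per the authors' deposited table, a log2 ratio of 0.89 (adjusted p = 1.89e-07). Thbs1, a secreted matrix glycoprotein, fell from 368 to 119 per the authors' deposited table (adjusted p = 2.58e-17). Igf1r, the receptor for both insulin-like growth factors, fell from 1763 to 1071 per the authors' deposited table (adjusted p = 4.35e-06). The growth regulator Myc, the chemokine receptor gene Ccr7 and the nucleotide reductase gene Rrm2 made up the other rises.

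Genes were also grouped by their seed matches instead of by name. Genes without a match had a median log2 of 0.02, genes with a 7mer only -0.03, genes with 1 8mer -0.06 and the 20 genes with 2 or more 8mers -0.20. Among genes with a mean of at least 50 these medians were 0.03, -0.01, -0.04 and -0.15, the last over 14 genes. Of the 409 genes with an 8mer, 3.91% were called higher and 3.42% lower, against 4.74% and 2.75% of the genes without a match. Against these medians, 5 of the 6 genes described here that hold an 8mer had ratios from 0.23 to 0.53, and Igf2bp2 had -0.28. The levels are unlike, since the 6 genes have overall means from 632 to 4433. The 409 genes with an 8mer have a median mean of 239. Over all rows the median log2 was -0.02 at a mean from 50 to 500 and 0.08 from 500 to 5000. The part of level in this difference was not tested. The untranslated regions of genes with an 8mer were longer, with a median of 2439 bases against 983 in genes without a match, and the part of length in these medians was not tested.

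**Figure D4:**
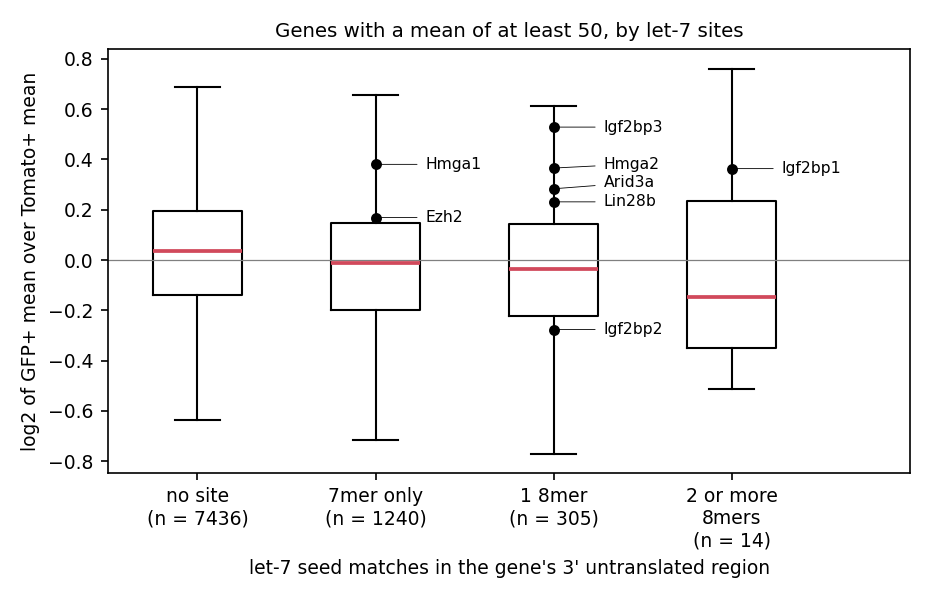
Log2 ratio of the GFP+ over the Tomato+ mean by let-7 seed matches in the 3′ untranslated region, for genes with a mean of at least 50; boxes span the quartiles with the median in red, whiskers reach the furthest value within 1.5 times the box, and points are the 8 genes. The medians run from 0.03 without a match to -0.15 with 2 or more 8mers, while 7 of the 8 genes lie above the median of their class. The 8 genes have means of at least 632, above the median mean of each class, and level was not matched.

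Genes of the insulin-like growth factor axis and transcripts or proteins known to associate with Igf2bp proteins were split. Of 18 measured, 3 rose and 3 fell, with a median log2 of 0.01. Igf2, the growth factor whose messenger gave the Igf2bp proteins their name, fell from a mean of 917 in Tomato+ to 387 in GFP+ per the authors' deposited table, 2.37-fold (adjusted p = 2.03e-12). Whether counting used strand is not stated, so reads of Igf2 and its antisense transcript cannot be told apart. H19, the imprinted noncoding RNA next to Igf2, which carries let-7 binding sites, fell from 2253 to 1374 per the authors' deposited table (adjusted p = 2.11e-05), and Igf1r fell as given above. The rises were those of Ybx1, an RNA-binding protein found with Igf2bp1, of Actb, whose messenger Igf2bp1 localises, and of Igfbp4, a secreted binding protein, by log2 ratios of 0.57, 0.44 and 0.44 per the authors' deposited table. Ybx1 and Actb have means above 5000, where the quartiles of the ratio were 0.31 and 0.47, so Actb lay between them and Ybx1 above both. Igf2bp3 was thus higher in the fraction in which Igf2 and H19 were lower.

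Other genes tied to developmental stage were mixed as well. Of 19 measured, 2 rose and 2 fell, with a median log2 of -0.20. Mest, an imprinted gene of fetal tissues, fell by 2.54 on the log2 scale and Plagl1, an imprinted zinc finger gene, by 2.01 per the authors' deposited table, with means of 13.1 and 52.9 for the latter. Satb1, a chromatin organiser of lymphoid progenitors, rose by 1.02 per the authors' deposited table and Egfl7, a secreted factor of endothelium and stem cells, by 0.38. Bcl11a, the repressor of fetal globin that lies downstream of LIN28B in human cells, had a log2 ratio of 0.22 per the authors' deposited table and did not pass (adjusted p = 0.50). Sox17, needed by fetal but not adult stem cells in mice, was near the floor of the table, with means of 3.86 and 5.05 per the authors' deposited table.

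High mobility group genes outside the Hmga pair rose in 3 of 11 cases and fell in 0, with a median log2 of 0.10. Hmgb1, Hmgb2 and Hmgn2, abundant chromatin proteins, had log2 ratios of 0.55, 0.36 and 0.40 per the authors' deposited table. All of these have means above 5000, where 69.3% of rows were called higher. Hmgb3, a family member of blood progenitors, had -0.12 per the authors' deposited table and did not pass. Proliferation genes leaned the same way as the 8 genes, with 4 of 34 rising, 0 falling, 31 ratios above 0 and a median log2 of 0.29. Most of them have a mean from 500 to 5000, where 66.3% of all rows had a ratio above 0. Ube2c, Ccnb1 and Aurka, all of dividing cells, rose by 0.64, 0.43 and 0.48 per the authors' deposited table. The part of cell division in the ratios of the 8 genes was not tested.

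**Figure D5:**
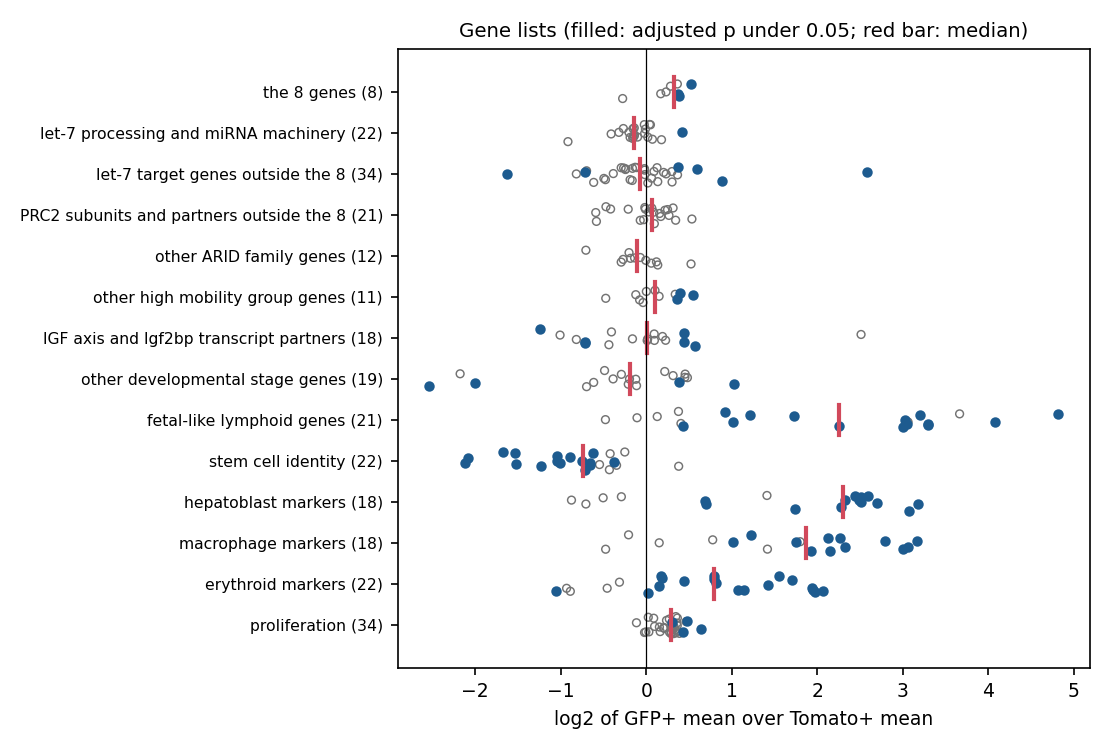
Log2 ratio of the GFP+ over the Tomato+ mean for the 8 genes and for each gene list, 1 point per measured gene (number in parentheses), filled where the authors' adjusted p is under 0.05, with the median as a red bar. The 8 genes span -0.28 to 0.53, a narrow range beside the lymphoid, stem cell, hepatoblast and macrophage lists. The lymphoid, hepatoblast and macrophage lists include genes with a mean under 50, while none of the 8 genes is that low.

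The 2 fractions differed more widely in other gene groups, which sets the scale for the 8 genes. Of 21 lymphoid genes 14 rose and 0 fell, with the smallest p-values for Ccr9, Rag1 and Flt3. Their median log2 was 2.25, but it was 0.97 over the 12 with a mean of at least 50. Of 22 stem cell identity genes 0 rose and 16 fell, with a median of -0.74, with the smallest p-values for Esam, Mecom and Tie1. Slamf1, which encodes the CD150 of the sort, was among the 16 that fell, at 27.9 in GFP+ cells against 119 in Tomato+ cells per the authors' deposited table. Most listed markers of other fetal liver cells were higher in the GFP+ fraction, but not all. Of 18 measured hepatoblast markers 13 rose and 0 fell, by p-value first Alb, Afp and Ahsg. The means of all 18 added up to 4144 in GFP+ cells against 2225 in Tomato+ cells. A lower mean in GFP+ was seen in 4 of them. These included Dlk1, at 811 against 993, and Krt18, at 103 against 169, per the authors' deposited table, and neither passed. Of 18 macrophage markers 12 rose and 0 fell, by p-value first Cd5l, Marco and Hmox1, with sums of 2900 and 1473. The 2 with a lower mean in GFP+ were Lyz2, at 611 against 705, and Mrc1, per the authors' deposited table, and neither passed. Of 22 erythroid markers 17 rose and 1 fell, by p-value first Hba-a2, Hbb-b1 and Slc4a1, with sums of 47496 and 19518. The 1 that fell was the transcription factor gene Gata1, with a log2 ratio of -1.06 per the authors' deposited table. In all 5 erythroid ratios were below 0, with Epor at -0.89 and Klf1 at -0.46 among those that did not pass. Some called rises were small, with log2 ratios of 0.02 for Cpox, 0.15 for Rhag, 0.17 for Car2 and 0.18 for Blvrb. With both fractions scaled to the same total, Cpox had -0.13 and Rhag -0.008, while Car2 and Blvrb kept 0.01 and 0.02. In the erythroid list the authors' calls thus did not follow the size of the ratio of group means. No listed marker with a row had a group mean of 0. The part of such cells in the rises of Igf2bp3, Hmga1 and Hmga2 was not tested.

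Rows most like the 3 genes that rose were found by log2 ratio among named genes with an overall mean close to their own, a likeness over only 2 group means. Nearest to Igf2bp3 were Cycs, which encodes cytochrome c, and Snrpd3, a spliceosome core protein, at 0.53 and 0.52 per the authors' deposited table, out of 852 candidates. Nearest to Hmga2 were the DNA methyltransferase gene Dnmt3b and Pa2g4, both at 0.37, out of 116 candidates per the authors' deposited table. Nearest to Hmga1 were the ribosomal protein gene Rpl7a and Rcc2, both at 0.38, out of 55 candidates per the authors' deposited table.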

How the data were processed

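RNA from 8 sorted samples was measured, and 1 table of the authors' comparison was analysed. Per the submitters' processing notes build mm9 and the tools TopHat, TopHat2 2.0.11, Bowtie2 2.2.1, DESeq and bedtools were used, with no roles given. Per the file headers, the authors deposited a mean signal (normalized count) over all libraries and per fraction, their ratio and its log2 value, with p-values before and after adjustment. A repeated header line after row 1374 was dropped. Fold and log2 values were computed from the authors' group means, GFP+ over Tomato+, so that positive means higher in GFP+. The depth per library is unknown and no SD can be given. The adjusted p equalled a recomputed Benjamini-Hochberg adjustment over all 14268 rows, and no test of differences was added. The 8 genes and all lists were chosen with earlier results of these data known, and counts over lists are descriptions. All 8 genes are named, with the 3 smallest p-values of each list, any call in the PRC2 and microRNA machinery lists, and the 2 rows most like each gene that rose; other genes were named after their values were seen. Missing symbols were looked up in RefSeq. Seed matches were read from the GENCODE M21 transcript with the longest 3′ untranslated region per gene, for 80.8% of symbols, with Python 3.11.15 and pandas 2.3.3. The site search and the adjustment were tested on simulated data.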

Additional observations from a re-analysis of the deposited data

How the results depend on the processing

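Of the 8 genes, 3 passed the adjusted p of 0.05. An adjusted p under 0.1, an adjustment over rows with a mean of at least 50 and the lowest-mean row per symbol also gave 3. Dropping rows that average 5000 or more, chosen after seeing the data, gave 2. That step only takes out Hmga1 and makes no new adjustment, so it says nothing about the other calls. By a stricter criterion, an adjusted p under 0.01 left 1 (Hmga2), a log2 ratio of at least 0.5 in size, chosen after seeing the data, 1 (Igf2bp3), and a minimum change of 1 or a Bonferroni adjustment 0. Of all rows 1069 passed, 699 at an adjusted p under 0.01 and 492 with a minimum change of 1. The median log2 of 0.32 over the 8 genes was 0.17 with equal totals and 0.29 with centring, both chosen after seeing the data for this median. Of the 8 genes only Lin28b has another row, with a log2 ratio of 0.22 against 0.23. No paired analysis was possible because values per library were not used here. Hence other size factors, removal of the authors' filter and leaving out single libraries were not run.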

Other observations

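These genes were picked with their values known. Besides Igf2bp1, the genes with 3 or more let-7 8mers in the 3′ untranslated region were Mcf2l with 7, Trim6, a ubiquitin ligase, with 5, and Nr6a1, an orphan nuclear receptor of early development, with 3. Mcf2l fell by 1.58 on the log2 scale per the authors' deposited table (adjusted p = 0.00773). Trim6 and Nr6a1 had log2 ratios of -0.35 and -0.70 per the authors' deposited table and did not pass. Igf2bp1 had the only positive ratio of these 4 genes. Lin28a, with 2 8mers, had an overall mean of 6.72 per the authors' deposited table, and G3bp1, a stress granule protein with 2 8mers and a mean of 4120, had a log2 ratio of 0.25 (adjusted p = 0.389).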
